A study of Mus musculus with 4 samples.

Results

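The genes described here code for nucleolar proteins that process ribosomal RNA. They were picked by symbol alone: probe sets whose annotation gives 1 gene symbol that begins with Nop, Nol, Utp, Rrp or Exosc and a number (or is Nolc1), together with a list of 15 further names such as Npm1, Ncl and Fbl. The rule found 83 of the 20380 probe sets with 1 symbol, and these stand for 50 of 12393 genes. Of the 15 names, Dkc1 and Npm3 were not analysed here. RNA of whole lung from mouse embryos titled embryonic day 18 was read on 4 Affymetrix arrays, 2 of Sftpc-Nmyc and 2 of wild-type embryos. Sftpc-Nmyc embryos carry a fusion of mouse Nmyc1 (now Mycn) with EGFP under 3.7 kb of the human SFTPC promoter and enhancer, which is active in lung epithelium. They arose by pronuclear injection into F2 eggs of C57BL/6J and DBA/2J background and were collected later on that day per the design text. That text gives no such time, and no strain, for the wild type. If age within the day or strain differed between the groups, that difference cannot be told apart from genotype here. Each embryo made by injection may hold its own insertion. The text calls the 2 samples of a group biological replicates.

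Ribosomes are built in the nucleolus, where RNA polymerase I makes a long precursor RNA that is folded, chemically modified, cut and trimmed while ribosomal proteins join it. Small nucleolar ribonucleoproteins (snoRNPs) of the box C/D kind methylate the precursor and those of the box H/ACA kind turn uridine into pseudouridine. A large assembly named the small subunit processome, a separate set of large subunit factors, and the RNA exosome, which trims RNA from its 3′ end, then shape the 2 subunits. Genes of this machinery are textbook targets of MYC proteins, and MYC with its partner MAX binds the DNA letters CACGTG, the E-box.

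As a check of the labels, Mycn probe set 1425922_a_at had signals of 455 and 356 in Sftpc-Nmyc lungs, against 34.7 and 32.1 in wild-type lungs. A second Mycn probe set, 1417155_at, ran the other way at 25.1 and 27.2 in Sftpc-Nmyc lungs, against 78.7 and 63.5 in wild-type lungs, and the remaining one, 1425923_at, overlapped between the groups. Signals of 27 Bacillus control probe sets reached at most 73.4, used below as a guide to background. Xist, expressed in female cells, had signals of 59.3 and 63.9 in Sftpc-Nmyc lungs, against 1708 and 1506 in wild-type lungs, and the Y-linked gene Eif2s3y had 58 and 61.7, against 3.1 and 0.8, so that sex and genotype cannot be told apart. Cell type and cell cycle markers also moved with genotype. With no filter on dim genes, 8.28% of all genes were higher and 8.42% lower at a limma adjusted p under 0.05. Higher were 22 of 24 S phase genes, 6 of 19 G2/M genes and 9 of 20 general epithelial genes. Lower were 12 of 12 alveolar type II genes, 6 of 8 alveolar type I, 14 of 14 endothelial and 10 of 14 mesenchymal genes. So were 3 of 9 myeloid, 2 of 6 erythroid and 6 of 10 cardiac muscle genes. Lyz2, which was lower, is on both the alveolar type II and the myeloid list. Summed signals were 10134 and 11250.1 in Sftpc-Nmyc lungs, against 4237 and 3004.5 in wild-type lungs, for 24 S phase genes, 15048 and 14732 against 10423 and 11076 for 20 epithelial genes, and 11494 and 9085 against 40453 and 48099 for 12 alveolar type II genes. They were 9020 and 6432 in Sftpc-Nmyc lungs, against 15265 and 15230.1 in wild-type lungs, for 8 alveolar type I genes, 3316 and 3299 against 8349 and 9571 for 14 endothelial genes and 20816 and 20110.4 against 33077 and 35457 for 14 mesenchymal genes. None of these markers was at 0 on any array, and their part in the results below was not tested. In whole lung, more RNA per cell and a larger share of cells that hold it cannot be told apart.

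Most nucleolar processing genes were higher in Sftpc-Nmyc lungs. With no filter on dim genes, 31 of the 50 member genes were higher at a limma adjusted p under 0.05 (62% of them, against 8.28% of 12393 genes), and 0 were lower (8.42% of all genes). By role the 31 held 3 of 3 box C/D proteins, 3 of 3 box H/ACA proteins and 3 of 3 abundant scaffolds. Large subunit factors gave 10 of 14, processome factors 8 of 17, exosome subunits 3 of 8 and genes not placed in a role here 1 of 2. With genes under the 30th percentile of mean signal left out, 35 of 49 were higher (71.4%, against 14.7% of 8675 genes tested) and 0 were lower (15.7% of all), and 0 were lower at an unadjusted p under 0.05. Rrp12 was the member left out by that filter. Ppan, Rrp9 and Exosc1 lay under it in wild-type lungs and passed only through their Sftpc-Nmyc signals, so that they had to differ; without them the count was 32 of 46. The median log2 fold change, Sftpc-Nmyc minus wild type, was 0.81 over the 49 members, 0.73 over the 46 and -0.02 over all genes tested. At least 2-fold higher were 22 of the 49 and 19 of the 46, against 5.53% of all genes.

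**Figure D1:**
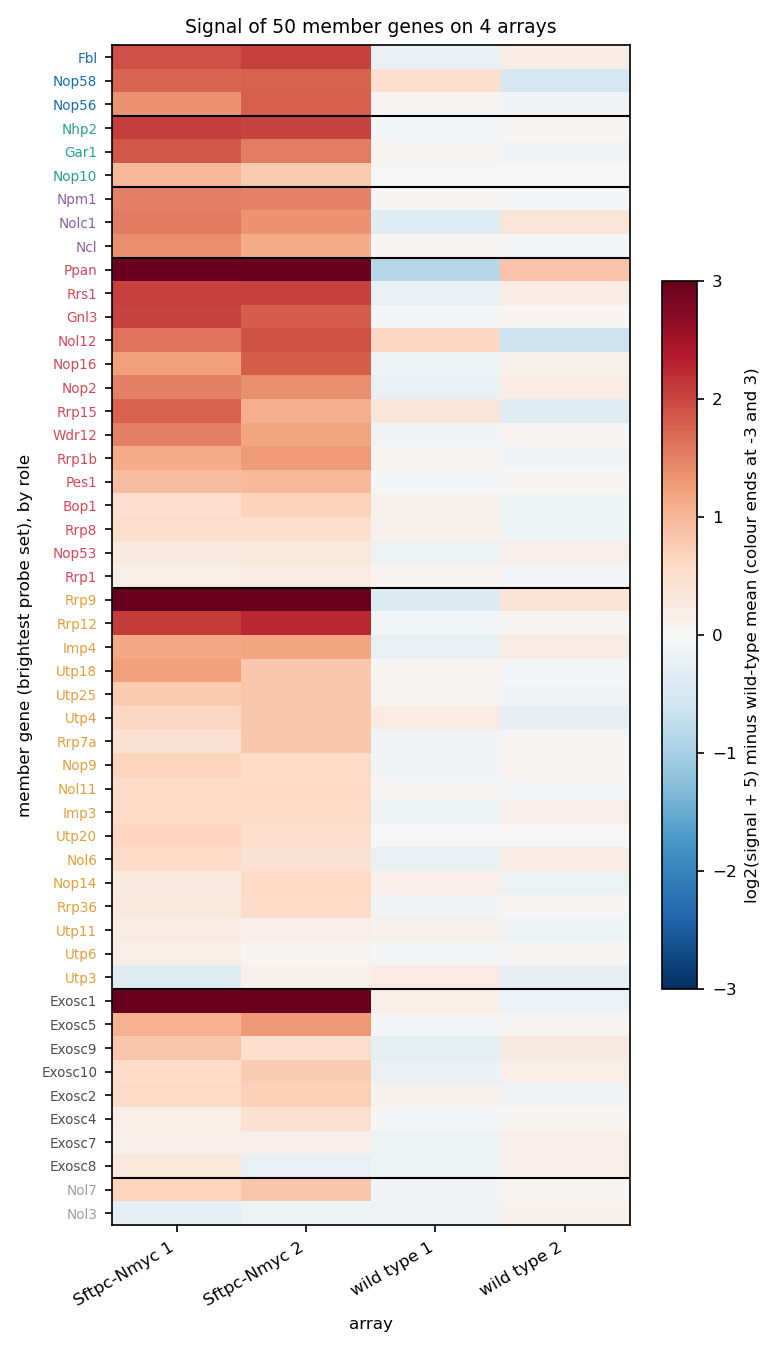
Heat map of log2(signal + 5) for the 50 member genes (rows, grouped by role, label colour by role) on the 4 arrays (columns), each minus the gene's wild-type mean. Both Sftpc-Nmyc columns are red for most rows, and Utp3, Exosc8 and Nol3 at the foot of their groups are near white.

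On the arrays themselves, 46 of the 49 tested members had both Sftpc-Nmyc signals above both wild-type signals, against 33.2% of all genes tested, as had 43 of the 46 that passed the filter in both groups. The exceptions were Utp3 and Exosc8, whose groups overlapped, and Nol3, which was lower on both Sftpc-Nmyc arrays without passing. Of the 14 tested members that were not called, 11 thus still ran the same way. The count of called members depended on the arrays: it was 25 when Sftpc-Nmyc replicate 1 was left out (9.94% of all genes in that fit), 22 when Sftpc-Nmyc replicate 2 was (8.88%), 28 for wild-type replicate 1 (10.5%) and 25 for wild-type replicate 2 (8.55%). Of the 35 calls, 20 held whichever array was left out, 13 were lost without at least 1 array, and 2 (Exosc1 and Rrp9) fell under the filter on dim genes without at least 1 array. The 13 were Bop1, Exosc2, Exosc10, Imp3, Nol7, Nol11, Nop9, Rrp7a, Rrp15, Utp4, Utp18, Utp20 and Utp25, of which Nol11, Nop9 and Utp20 lost the call whichever array was left out.

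**Figure D2:**
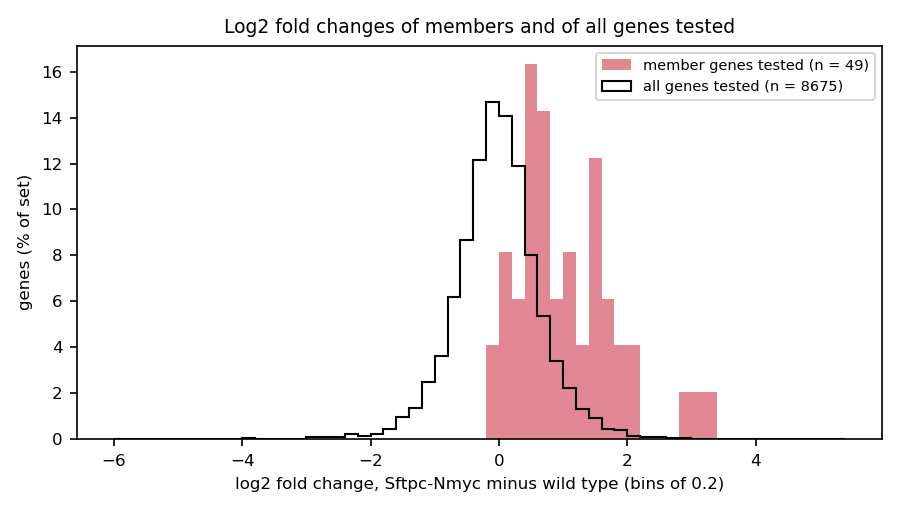
Histogram of log2 fold changes (x axis, Sftpc-Nmyc minus wild type, bins of 0.2) as a percent of each set (y axis), for 49 member genes tested (filled) and all 8675 genes tested (line). The members lie between -0.20 and 3.26 with a median of 0.81, to the right of the median of -0.02 over all genes.

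All 3 core proteins of box C/D snoRNPs that were measured rose. Fbl, fibrillarin, the methyltransferase of these particles, had deposited signals of 1199.8 and 1286 in Sftpc-Nmyc lungs, against 257 and 356 in wild-type lungs. Its log2 fold change was 2.00 ± 0.17 (limma SE, n = 2 per group, limma adjusted p = 0.00041). Nop56, a scaffold that bridges the particle, gave 502 and 681 in Sftpc-Nmyc lungs, against 204 and 181 in wild-type lungs, which is 1.57 ± 0.18 on the log2 scale (limma adjusted p = 0.001). Nop58, its paralog on the other side of the particle, gave 486 and 493 in Sftpc-Nmyc lungs, against 202 and 97.2 in wild-type lungs. The wild-type signals of Nop58 were far apart, yet both stayed below both Sftpc-Nmyc signals, and its log2 fold change was 1.76 ± 0.29 (limma adjusted p = 0.004). These 3 calls held whichever array was left out, but Fbl stood at 0.98 without Sftpc-Nmyc replicate 2, where its other probe set was the brighter.

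The 3 measured box H/ACA proteins rose as well. Nhp2, an RNA-binding core protein of these particles and of telomerase, had signals of 892 and 863 in Sftpc-Nmyc lungs, against 201 and 212 in wild-type lungs. The replicates of each group lay close together, and the log2 fold change was 2.05 ± 0.13 (limma adjusted p = 0.00015). Gar1, which helps the particle release its substrate, gave 467 and 368 in Sftpc-Nmyc lungs, against 133 and 117 in wild-type lungs, or 1.70 ± 0.17 on the log2 scale (limma adjusted p = 0.00066). Nop10, the small protein that links the enzyme to Nhp2, gave 2387 and 1987 in Sftpc-Nmyc lungs, against 1095 and 1141 in wild-type lungs. Its groups did not overlap, and its log2 fold change of 0.90 ± 0.12 (limma adjusted p = 0.0016) was under 2-fold. Dyskerin, the enzyme of these particles, is made by Dkc1 and was not analysed here.

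The abundant chaperones and scaffolds of the nucleolus rose by more than 2-fold in all 3 cases measured. Npm1, nucleophosmin, which chaperones ribosomal proteins and histones, had signals of 3561 and 3190.2 in Sftpc-Nmyc lungs, against 1113 and 1089 in wild-type lungs, and differed by 1.50 ± 0.10 on the log2 scale (limma adjusted p = 0.00018). Ncl, nucleolin, which binds the precursor RNA and nucleolar chromatin, gave 2613 and 2111 in Sftpc-Nmyc lungs, against 971 and 947 in wild-type lungs, or 1.25 ± 0.13 on the log2 scale (limma adjusted p = 0.00069). Nolc1, which shuttles snoRNP components between nucleolus and Cajal body, gave 254 and 219 in Sftpc-Nmyc lungs, against 66 and 107 in wild-type lungs, or 1.46 ± 0.25 on the log2 scale (limma adjusted p = 0.0041). In each of these 3 genes both Sftpc-Nmyc arrays lay above both wild-type arrays, and the 2 wild-type arrays of Nolc1 were the least close. Npm1 has processed pseudogenes of near-identical sequence, so its probe sets may also read those.

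Among 14 factors of large subunit assembly, 11 rose, against 14.7% of all genes tested. The other 3 were positive without passing, and the median log2 fold change of the 14 was 1.39. Without Ppan, which passed the filter only through Sftpc-Nmyc, 10 of 13 rose and the median was 1.35. Rrs1, which in yeast helps bring the smallest ribosomal RNA into the early large subunit, had signals of 335 and 332 in Sftpc-Nmyc lungs, against 67.5 and 91.2 in wild-type lungs, a log2 difference of 2.05 ± 0.19 (limma adjusted p = 0.00051). Gnl3, nucleostemin, a nucleolar GTPase abundant in stem and progenitor cells, gave 426 and 364 in Sftpc-Nmyc lungs, against 96.4 and 105 in wild-type lungs, with 1.93 ± 0.16 (limma adjusted p = 0.00039). Nop2, a methyltransferase of the large subunit RNA, gave 248 and 226 in Sftpc-Nmyc lungs, against 73.3 and 98.4 in wild-type lungs, with 1.45 ± 0.20 (limma adjusted p = 0.0018). Ppan, the mouse form of yeast Ssf1, gave 204 and 205 in Sftpc-Nmyc lungs, against 10.7 and 43.7 in wild-type lungs. Its wild-type signals were below 73.4 and far apart, and the log2 fold change was 2.97 ± 0.48 (limma adjusted p = 0.0034), or 2.14 without wild-type replicate 1 and 3.84 without wild-type replicate 2.

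The PeBoW complex, which acts in the maturation of the large subunit RNA, is made of Pes1, Bop1 and Wdr12. Wdr12 gave 165 and 132 in Sftpc-Nmyc lungs, against 54.1 and 59.3 in wild-type lungs, Pes1 gave 228 and 236 in Sftpc-Nmyc lungs, against 116 and 122 in wild-type lungs and Bop1 gave 288 and 326 in Sftpc-Nmyc lungs, against 222 and 182 in wild-type lungs. Both wild-type signals of Wdr12 were below 73.4. All 3 were higher without overlap, by 1.35 ± 0.21, 0.94 ± 0.16 and 0.60 ± 0.17 on the log2 scale, but the call on Bop1 was lost without either Sftpc-Nmyc array and without wild-type replicate 2 (limma adjusted p = 0.055 to 0.15). The other called members were Nol12, a relative of a yeast exonuclease that trims the precursor (1.78), Nop16 (1.52), Rrp15 (1.43) and Rrp1b (1.19). Nol12 stood at 2.43 without wild-type replicate 1 and 1.16 without wild-type replicate 2, and Nop16 lost the call with the mean of its probe sets, at 0.78 (limma adjusted p = 0.053). Least moved were Rrp1, the paralog of Rrp1b, at 776 and 793 in Sftpc-Nmyc lungs, against 700.1 and 651 in wild-type lungs, and Nop53, at 1954 and 1957 in Sftpc-Nmyc lungs, against 1360.0 and 1727 in wild-type lungs. Their log2 fold changes of 0.20 ± 0.12 and 0.31 ± 0.13 did not pass (limma adjusted p = 0.26 and 0.12). Rrp8, a methyltransferase, stood between at 0.50 ± 0.19 (limma adjusted p = 0.078).

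**Figure D3:**
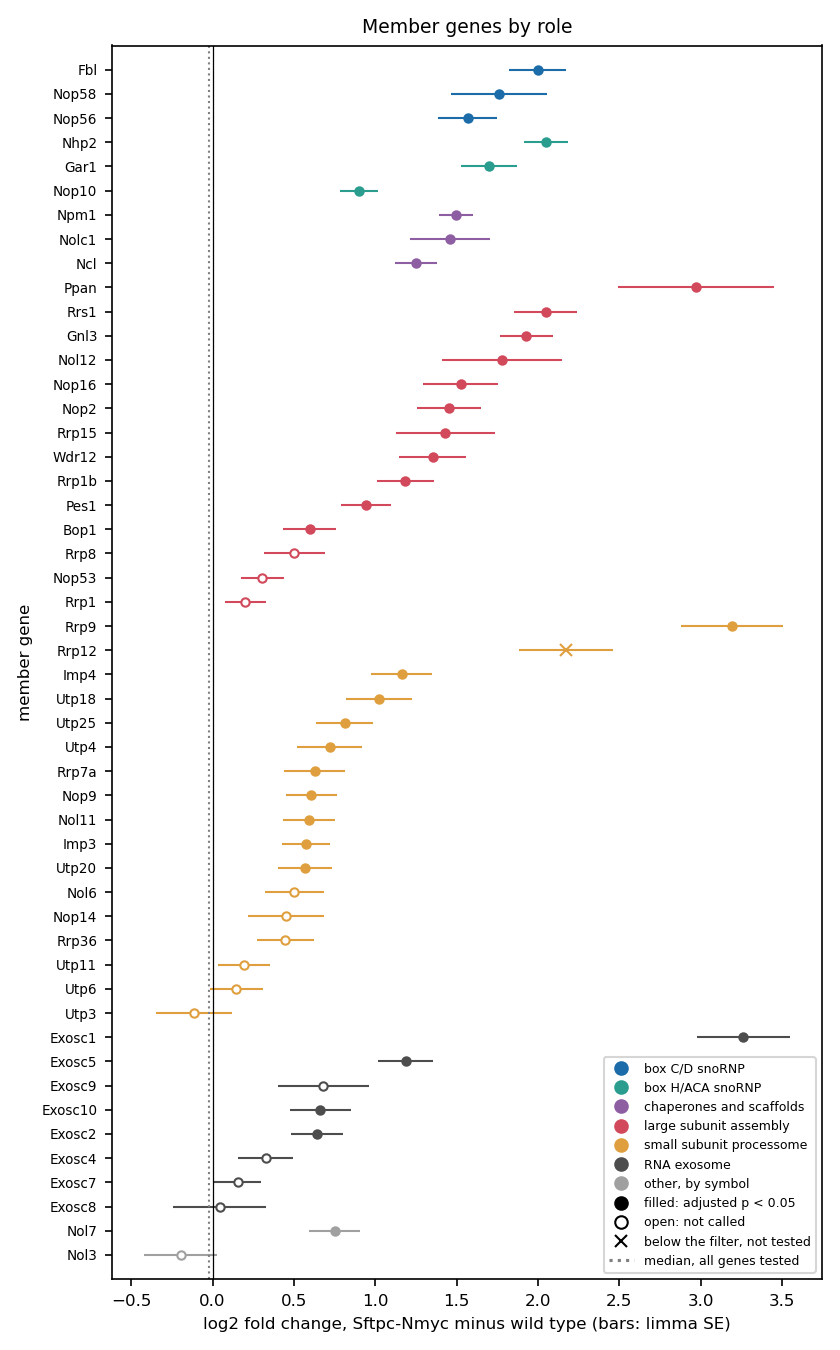
Log2 fold change of each member gene (x axis, Sftpc-Nmyc minus wild type), coloured by role, with bars of 1 limma standard error. Filled points passed a limma adjusted p under 0.05, open points did not, the cross is Rrp12 (not tested), and the dotted line is the median of all genes tested at -0.02.

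Of the small subunit processome, 10 of 16 tested members were higher and none lower, against 14.7% and 15.7% of all genes tested. Their median log2 fold change was 0.58. Without Rrp9, which passed the filter only through Sftpc-Nmyc, 9 of 15 were higher, and these 15 lay between -0.11 and 1.16. Rrp9, the protein that marks the U3 snoRNP, had signals of 167 and 204 in Sftpc-Nmyc lungs, against 11.7 and 22.6 in wild-type lungs. Its wild-type signals were below 73.4, and the log2 fold change was 3.19 ± 0.31 (limma adjusted p = 0.0006). Imp4, a partner of that same snoRNP, gave 285 and 291 in Sftpc-Nmyc lungs, against 108 and 147 in wild-type lungs, with 1.16 ± 0.19 (limma adjusted p = 0.0035). Imp3, which works beside Imp4, gave 675 and 669 in Sftpc-Nmyc lungs, against 397 and 498 in wild-type lungs. Its difference was smaller, at 0.58 ± 0.15 (limma adjusted p = 0.022).

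Of the Utp proteins, named for their binding to U3 snoRNA in yeast, Utp18, Utp25, Utp4 and Utp20 passed, at log2 fold changes of 1.02, 0.81, 0.72 and 0.57. Utp18 gave 203 and 148 in Sftpc-Nmyc lungs, against 88.8 and 79.6 in wild-type lungs, a difference of 1.02 ± 0.20 (limma adjusted p = 0.0078). Utp11, Utp6 and Utp3 did not pass. Utp6 gave 154 and 142 in Sftpc-Nmyc lungs, against 132 and 136 in wild-type lungs, a difference of 0.15 ± 0.16 (limma adjusted p = 0.53). Utp3 gave 132 and 188 in Sftpc-Nmyc lungs, against 206 and 143 in wild-type lungs, so its arrays overlapped and the difference of -0.11 ± 0.23 turned positive without Sftpc-Nmyc replicate 1 or without wild-type replicate 1 (0.12 and 0.14). Rrp7a, Nop9 and Nol11 also rose, by 0.63, 0.61 and 0.59, while Nol6, Nop14 and Rrp36, at 0.50, 0.45 and 0.45, did not pass. Rrp12 was dim throughout, at 23.5 and 28.9 in Sftpc-Nmyc lungs, against 2.2 and 2.5 in wild-type lungs. Without the filter its log2 fold change was 2.17 ± 0.29 (limma adjusted p = 0.0099), but all 4 signals lay below 73.4. Leaving out any array lowered the count of this role group, most without Sftpc-Nmyc replicate 2, where its share was near that over all genes.

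The RNA exosome is a barrel of 6 subunits with a cap of 3 and an attached nuclease. Of its 8 tested subunits 4 rose, against 14.7% of all genes tested. The count was 3 of 7 without Exosc1, which passed the filter only through Sftpc-Nmyc. Exosc1, a cap subunit, had signals of 144 and 138 in Sftpc-Nmyc lungs, against 13.2 and 8.8 in wild-type lungs, a log2 difference of 3.26 ± 0.28 (limma adjusted p = 0.00042). Its wild-type signals lay far below 73.4, and its second probe set, 1432052_at, was under the filter at 14.5 and 4.7 in Sftpc-Nmyc lungs, against 4 and 3.5 in wild-type lungs. Exosc2, another cap subunit, gave 256 and 279 in Sftpc-Nmyc lungs, against 184 and 156 in wild-type lungs, with 0.64 ± 0.16 (limma adjusted p = 0.019). Exosc5, a barrel subunit, gave 215 and 254 in Sftpc-Nmyc lungs, against 99 and 103 in wild-type lungs, with 1.19 ± 0.17 (limma adjusted p = 0.0022).

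The other barrel subunits measured did not pass. Exosc7 gave 635 and 628 in Sftpc-Nmyc lungs, against 499.7 and 619 in wild-type lungs, and Exosc8 gave 63.2 and 42.7 in Sftpc-Nmyc lungs, against 49.1 and 58.6 in wild-type lungs. Exosc8 overlapped between the groups, and its difference of 0.04 ± 0.29 took the opposite sign with no normalization between arrays and without either replicate 1. Exosc4 and Exosc9 stood at 0.33 ± 0.17 and 0.68 ± 0.28 (limma adjusted p = 0.18 and 0.1). Exosc10, the nuclease concentrated in the nucleolus, gave 223 and 258 in Sftpc-Nmyc lungs, against 132 and 171 in wild-type lungs, with 0.66 ± 0.19 (limma adjusted p = 0.031). Leaving out any array lowered the count of higher exosome subunits, and without Sftpc-Nmyc replicate 2 their share was near that over all genes.

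Nol3 and Nol7 were placed in none of the roles above. Nol3, a repressor of cell death known from heart and muscle, is not known as a processing factor, and it gave 53.8 and 62.3 in Sftpc-Nmyc lungs, against 66.7 and 75 in wild-type lungs. Its difference of -0.20 ± 0.22 did not pass (limma adjusted p = 0.54), and 3 of its 4 signals were below 73.4. Nol7 gave 306 and 341 in Sftpc-Nmyc lungs, against 182 and 199.9 in wild-type lungs, a log2 difference of 0.75 ± 0.15 (limma adjusted p = 0.0093), but with the mean of its 3 probe sets it stood at 0.25 (limma adjusted p = 0.50).

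At the level of probe sets, 48 of 75 tested member probe sets were higher (64%, against 13.5% of 14266) and 0 were lower (12.9% of all), adjusted over all probe sets tested. Of 22 genes with more than 1 probe set, 18 had several tested. All probe sets passed for 7 of these 18 (Fbl, Nhp2, Nolc1, Nop10, Nop56, Npm1 and Rrp1b), some for 7 and none for 4. Size could differ within a gene. For Nop56, probe set 1455035_s_at gave 504 and 569 in Sftpc-Nmyc lungs, against 30.5 and 52.1 in wild-type lungs, a log2 fold change of 3.63 ± 0.26, against 1.57 for 1426533_at, but both its wild-type signals were below 73.4, so that its fold change is imprecise. For Fbl, 1416684_at gave 774 and 732 in Sftpc-Nmyc lungs, against 431 and 345 in wild-type lungs. Its log2 fold change of 0.95 ± 0.15 is smaller than the 2.00 of 1416685_s_at, the brighter by mean over all 4 arrays. In wild-type lungs 1416685_s_at gave 257 and 356, so it was the brighter only through its Sftpc-Nmyc signals. For Ncl, 3 of 4 probe sets passed at 1.25 to 1.56, and the dim 1456528_x_at overlapped between the groups at 0.03 ± 0.40.

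In several genes the probe set decided the call. Pes1, Nol7, Nol11 and Exosc10 passed by their brightest probe set, and at least 1 other tested probe set of each did not. Nop53 did not pass by its brightest probe set, but 1451121_a_at gave 617 and 622 in Sftpc-Nmyc lungs, against 242 and 337 in wild-type lungs and passed at 1.09 ± 0.18 (limma adjusted p = 0.0047), and the dim 1452409_at stood at -0.36. Rrp1 likewise passed by 1415957_a_at at 0.50 ± 0.13 (limma adjusted p = 0.03) and not by the brighter 1427720_a_at. Nol6 passed with the mean of its probe sets, at 0.98 (limma adjusted p = 0.021), and not by either alone. Where in the transcript each probe set lies was not determined here.

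**Figure D4:**
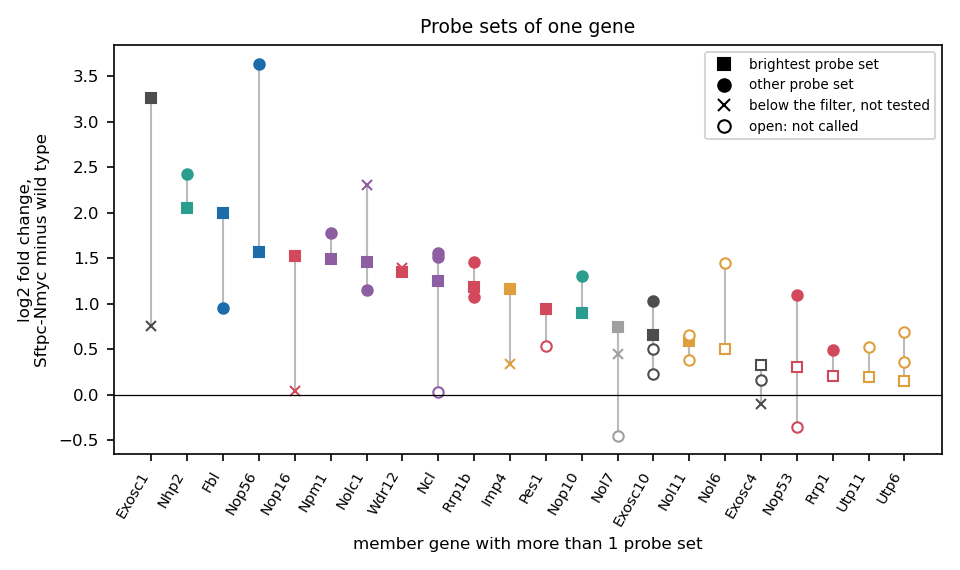
Log2 fold changes (y axis, Sftpc-Nmyc minus wild type) of every probe set of the 22 member genes with more than 1 (x axis), joined per gene. Squares are the brightest probe set, circles the others and crosses those under the filter; filled symbols passed a limma adjusted p under 0.05. Nop56 spans 1.57 to 3.63 and Nop53 spans -0.36 to 1.09.

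Other genes of ribosome production, on lists of textbook members outside the symbol rule, are set against the 14.7% of all genes tested that were higher. Of 39 further ribosome assembly factors tested, 25 were higher and none lower, with a median log2 fold change of 0.81 against -0.02 over all genes. Tsr1, Tma16, Wdr75 and Dimt1 passed the filter only through Sftpc-Nmyc and so had to differ, and without them the count was 21 of 35 and the median 0.69. Pa2g4 rose by 1.50 ± 0.13 and Tsr1, a late small subunit factor whose wild-type signals were below 73.4, by 2.39 ± 0.24, while Rpf2 stood at -0.24 ± 0.25 without passing. Of 7 genes of snoRNP core and assembly 6 were higher, with a median of 1.28. They included Ruvbl2, an ATPase that helps assemble box C/D particles, at 1.28 ± 0.14, and Coil, the scaffold of Cajal bodies, at 1.31 ± 0.17, and Nufip1 at 0.53 ± 0.24 did not pass. The assembly factor count was 16 without Sftpc-Nmyc replicate 1.

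Exosome nucleases and cofactors were higher in 5 of 11, with a median of 0.38. The nuclease Dis3 rose by 1.38 ± 0.16 and the cofactor Mphosph6 by 0.94 ± 0.19, and Wdr61 stood at -0.14 ± 0.14. Both wild-type signals of Mphosph6 were below 73.4. RNase MRP and RNase P genes were higher in 3 of 7, with Pop5 at 0.65 ± 0.15, Rpp25l at 0.65 ± 0.16 and Pop4, not passing, at -0.09 ± 0.29. RNA polymerase I genes were higher in 4 of 12, with Polr1b at 1.18 ± 0.21, Polr1d at 0.67 ± 0.15 and Taf1a, not passing, at -0.48 ± 0.25. Without Sftpc-Nmyc replicate 2 these counts were 3, 1 and 1 (8.88% of all genes), and without wild-type replicate 2 they were 1, 0 and 1 (8.55%). In lists of this size a count of 0 or 1 is near the share over all genes. Cytosolic ribosomal proteins, the parts that the nucleolar machinery assembles, were higher in 11 of 41 with a median of 0.16. Rpl14, whose wild-type signals were below 73.4, rose by 1.72 ± 0.19. Rpl11 rose by 1.06 ± 0.10, and Rpl27a stood at -0.51 ± 0.17. Their count moved with the scaling of the arrays, to 29 with no normalization between arrays and 34 with median centring, so that no extent is given for that list, and to 6 without wild-type replicate 2. None of these lists had a member lower at a limma adjusted p under 0.05. At an unadjusted p under 0.05, 1 ribosomal protein and 0 genes of the other 5 lists were lower.

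Since the members moved together, their promoters were searched for CACGTG. RefSeq windows of 250 bases before to 50 after the annotated start (build GRCm38.p6) were at hand for 38 of the 50 members. CACGTG, which reads the same on both strands, was in a window of 10 of these 38 genes (26.3%), against 12.1% of 7027 tested genes and 8.09% of 27025 genes in the whole table. Median G + C content was 58.2% in the members' windows and 61% in those of tested genes. The variant CACGCG, searched on both strands as CACGCG or CGCGTG, was in 10 of 38 members (26.3%), against 20.4% of tested genes. All 10 members with CACGTG were among the 31 called higher that had a window, and 0 of the 7 other members had it. Most members with a window were called higher, so most of those with CACGTG would be among them in any case. A group of 7 is too small to set a share of 0 apart from the 12.1% of tested genes. Of all genes called higher, 16% held CACGTG, and of all called lower, 8.65%.

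The members with CACGTG were not those with the greatest fold changes. They were Nop2, Exosc5, Imp4, Utp18, Pes1, Utp25, Utp4, Rrp7a, Nol11 and Utp20, with log2 fold changes between 0.57 and 1.45, while Exosc1, Rrp9, Ppan, Nhp2 and Gnl3 had none in their windows. In 7 of the 10 it lay in the bases before an annotated start, and for Utp25 a single site was read from 3 neighbouring starts. The 6 sites below, in Nop2, Exosc5, Utp18, Nol11, Imp4 and Rrp7a, lie before the start and, unlike that of Utp25, were read from 1 start each. They are shown to let the flanks be compared, with the E-box in capitals and no base after the start. The stretches are Nop2 at chr6:125131796-125131855 (plus strand), Exosc5 at chr7:25659082-25659141 (plus strand), Utp18 at chr11:93885767-93885813 (minus strand), Nol11 at chr11:107189392-107189451 (minus strand), Imp4 at chr1:34439681-34439740 (plus strand) and Rrp7a at chr15:83122977-83123036 (minus strand).
Nop2: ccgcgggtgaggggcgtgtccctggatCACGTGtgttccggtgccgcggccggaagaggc
Exosc5: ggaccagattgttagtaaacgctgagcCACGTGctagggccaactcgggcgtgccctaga
Utp18: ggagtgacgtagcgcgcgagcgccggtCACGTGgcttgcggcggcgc
Nol11: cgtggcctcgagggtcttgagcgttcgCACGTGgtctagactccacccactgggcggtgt
Imp4: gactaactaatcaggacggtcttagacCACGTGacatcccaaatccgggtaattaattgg
Rrp7a: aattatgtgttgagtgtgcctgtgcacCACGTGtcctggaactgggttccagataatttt
The first base of the E-box lay at -60 in Nop2, -44 in Exosc5, -20 in Utp18, -43 in Nol11, -121 in Imp4 and -208 in Rrp7a, counted from the annotated start. A match is a stretch of letters and not a measured binding site, and binding was not measured in these samples.

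**Figure D5:**
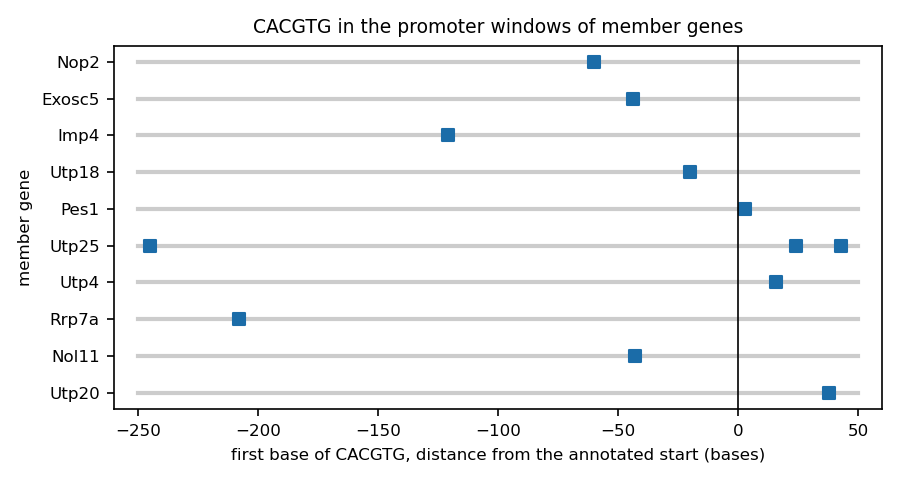
Position of CACGTG (squares, first base, in bases from the annotated start) in the promoter windows (grey bars, 250 before to 50 after the start) of the 10 member genes that hold it, ordered by log2 fold change from 1.45 in Nop2 at the top to 0.57 in Utp20. The 3 squares of Utp25 are a single site read from 3 starts.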

How the data were processed

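Total RNA of whole lung was labelled with biotin for Affymetrix arrays, per the labels. The deposited intensities are linear, with 22690 probe sets an array. Software and scaling are not stated in any source at hand, although all arrays share a mean of 150.05 when the top and bottom 2% are trimmed. Detection calls were not used here. The number of arrays limits precision.

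Names came from the platform annotation, and the 20380 probe sets with 1 symbol were used. Values were floored at 1, raised by 5, put on a log2 scale and quantile normalized without control probe sets. Fold changes on this scale are too small for dim genes. Printed signals are the deposited intensities. A gene was read by its brightest probe set, that with the highest mean over all 4 arrays, so this choice can lean on the group with the higher signal. Genes under the 30th percentile of mean signal were dropped. With group as the only term, limma (version 3.58.1; R version 4.3.3) with a mean-variance trend in eBayes gave standard errors, printed after ±, and Benjamini-Hochberg adjusted p-values over 8675 genes, threshold 0.05. A second fit covered 14266 probe sets. The code was tested on simulated data.

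Members, roles and lists were chosen with earlier results of these data known. Mpp6 and Taf9 were taken off the lists after values were seen, being no exosome or snoRNP factors. Within each role, the 3 members with the largest absolute moderated statistic, the 2 with the smallest and those below 0 are given by array by rule. Of each list the 2 largest and the 1 most opposed are named. Alternatives covered the offset, normalization, filter, choice of probe set, variance model, replicate block and leaving out each array. Promoters are from RefSeq, GRCm38.p6.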

Additional observations from a re-analysis of the deposited data

How the results depend on the processing

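Of the 35 members called higher, 21 kept the call in every alternative that tested them, and 0 members were called lower in any. The median of the tested members stayed between 0.64 (offset of 50) and 0.92 (without wild-type replicate 2). Their count of higher calls was 30 to 35 in the alternatives that kept all arrays and 22 to 28 with 1 array left out, where all genes gave 742 to 907 higher and 637 to 1044 lower, and the lone array of a group was taken to vary like the others. With the replicate number as a block, 32 members were higher; the numbers do not pair the samples (correlation of the deviations -0.02 between the groups), and Bop1, Utp20 and Utp4 lost the call. With 1 array left out, higher calls ran from 2 to 5 in the small subunit processome, 1 to 3 in the exosome and 0 to 1 in the members by symbol only, against 16 to 21 in other assembly factors, 1 to 4 in exosome cofactors, 0 to 1 in RNase MRP and RNase P, 1 to 4 in RNA polymerase I and 6 to 10 in ribosomal proteins. Ribosomal proteins were higher in 29 with no normalization between arrays, 34 with median centring, 18 with cyclic loess and 6 with no variance trend, and 1 was lower under the 50th percentile filter. With no filter, higher calls were 3 in exosome cofactors and 2 in RNA polymerase I. With the mean of probe sets they were 3 in exosome cofactors and 0 for Nol3 and Nol7. Exosc8 stood at -0.040 with no normalization between arrays and at -0.23 to 0.32 with 1 array left out, and Utp3 at -0.37 to 0.14. The cause of these shifts was not tested. CACGTG was in 7 of 38 members (18.4%) when only the 250 bases before the start were searched, against 10.2% of tested genes. Members near or below 73.4, the highest Bacillus control, among them Rrp12, Nol3, Exosc8 and 4 called members with both wild-type signals under it, have imprecise fold changes.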
